A study of Mus musculus with 9 samples.

Results

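CpG-rich promoters without BAP1 are promoters that were rich in CpG by the ratio below, with no minimum GC content, and had no BAP1 peak nearby in Ba/F3 cells. They were selected on the readout itself, so the absence of a peak is a description and carries no test. A promoter had to have a CpG ratio, observed over expected, of at least 0.6 over 500 bp on either side of the transcription start site (TSS), and no peak middle within 5 kb of any annotated TSS of its gene. Of 21418 protein-coding promoters on chromosomes 1 to 19, 1 for each gene, 10091 were CpG-rich and 2810 of these had no peak within 5 kb. This is 27.8% of the CpG-rich promoters (95% Wilson interval 26.98 to 28.73%). A further 7130 CpG-rich promoters (70.7%) had a peak within 1 kb and are the group for comparison, and 151 (1.496%) had their nearest peak between 1 and 5 kb away. Among the 11327 CpG-poor promoters, 82.3% had no peak within 5 kb.

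BAP1 is the deubiquitinase that removes the ubiquitin of H2AK119ub, a mark on histone H2A that Polycomb repressive complex 1 places on chromatin. CpG islands are stretches of DNA that kept their CpG dinucleotides and are mostly free of DNA methylation, and they hold most promoters of housekeeping genes and many promoters of developmental genes. In cell types that do not use them, CpG islands of developmental genes are the best known sites of Polycomb complexes.

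The peaks came from Ba/F3, a mouse B cell lineage precursor line grown with interleukin 3 from WEHI conditioned medium. One sample was wild type Ba/F3 chromatin precipitated with 52.8 μg of anti-BAP1, and the other was chromatin of Ba/F3 cells that stably expressed triple-FLAG-tagged murine BAP1 under puromycin selection, precipitated with 5 μg of anti-FLAG M2. Both entered 1 pooled list of 13164 intervals in mouse build mm9, each 200 bp wide and with no score. Binding was therefore taken here as present or absent, without a height. The study also has 4 input samples and 3 H2AK119ub samples, from wild type cells and from the Bap1 knockout lines KO3 and KO4, each grown from a single cell, and these were not analysed here. Neither expression nor Ba/F3 marker levels could be read from a peak list, so the cell identity was not checked against its markers. Each immunoprecipitation was sequenced once, which leaves no replicate and no test. The intervals given cover counting error over promoters only, and promoters are not replicates of a condition.

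The sequences of 5 of the 2810 promoters are shown to let the CpG content be seen next to that of 3 promoters with a peak. Each is the run of 250 bases directly before the TSS in mm9, read in the direction of transcription, with every CpG in capitals. The 5 are the promoters with the highest CpG ratio in the lists of Hox, other homeobox, Pax, Sox and forkhead genes, all of which encode transcription factors. Hoxa5 lies at chr6:52154587-52154836 on the minus strand, Pou4f1 at chr14:104867217-104867466 on the minus strand, Pax2 at chr19:44830289-44830538 on the plus strand, Sox12 at chr2:152223783-152224032 on the minus strand and Foxo1 at chr3:52072009-52072258 on the plus strand.
Hoxa5: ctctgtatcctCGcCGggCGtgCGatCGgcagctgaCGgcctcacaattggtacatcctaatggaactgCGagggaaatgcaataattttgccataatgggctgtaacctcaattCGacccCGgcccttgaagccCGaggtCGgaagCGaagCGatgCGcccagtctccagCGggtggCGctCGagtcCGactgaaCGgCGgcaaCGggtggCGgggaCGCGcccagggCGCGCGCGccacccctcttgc
Pou4f1: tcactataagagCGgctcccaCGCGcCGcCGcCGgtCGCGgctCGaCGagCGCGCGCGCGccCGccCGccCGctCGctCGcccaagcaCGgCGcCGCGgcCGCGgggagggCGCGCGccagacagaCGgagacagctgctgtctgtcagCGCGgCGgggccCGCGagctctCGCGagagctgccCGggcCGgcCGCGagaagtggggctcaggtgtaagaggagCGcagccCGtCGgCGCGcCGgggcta
Pax2: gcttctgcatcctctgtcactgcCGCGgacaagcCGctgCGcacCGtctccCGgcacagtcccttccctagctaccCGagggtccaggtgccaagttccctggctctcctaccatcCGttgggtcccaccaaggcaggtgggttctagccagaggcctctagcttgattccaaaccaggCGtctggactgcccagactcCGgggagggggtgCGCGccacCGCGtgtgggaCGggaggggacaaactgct
Sox12: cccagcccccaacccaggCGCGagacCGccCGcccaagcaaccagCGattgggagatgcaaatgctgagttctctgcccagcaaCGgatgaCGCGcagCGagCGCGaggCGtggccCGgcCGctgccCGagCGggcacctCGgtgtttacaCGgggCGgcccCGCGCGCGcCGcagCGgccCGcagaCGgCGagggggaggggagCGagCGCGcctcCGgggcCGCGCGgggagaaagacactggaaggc
Foxo1: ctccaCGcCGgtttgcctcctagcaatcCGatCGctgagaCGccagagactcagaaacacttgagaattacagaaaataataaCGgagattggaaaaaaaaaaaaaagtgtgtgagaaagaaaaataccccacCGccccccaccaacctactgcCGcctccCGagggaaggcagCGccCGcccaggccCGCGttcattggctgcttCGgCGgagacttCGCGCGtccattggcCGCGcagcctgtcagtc

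The comparison promoters were taken by the same rule from the lists of cytosolic ribosomal proteins, mitochondrial ribosomal proteins and proteasome subunits. Rpl22l1 lies at chr3:28704108-28704357 on the plus strand, Mrps30 at chr13:119176060-119176309 on the minus strand and Psma7 at chr2:179777139-179777388 on the minus strand.
Rpl22l1: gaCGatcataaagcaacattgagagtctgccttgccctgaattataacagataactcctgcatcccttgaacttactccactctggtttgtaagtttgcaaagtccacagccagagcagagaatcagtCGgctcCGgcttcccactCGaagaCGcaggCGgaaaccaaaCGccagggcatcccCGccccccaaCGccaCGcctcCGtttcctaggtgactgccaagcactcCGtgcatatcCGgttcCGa
Mrps30: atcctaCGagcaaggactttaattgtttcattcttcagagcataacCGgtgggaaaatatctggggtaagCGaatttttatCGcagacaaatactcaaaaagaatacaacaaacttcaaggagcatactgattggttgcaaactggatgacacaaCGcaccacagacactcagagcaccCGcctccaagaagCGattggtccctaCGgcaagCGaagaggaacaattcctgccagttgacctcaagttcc
Psma7: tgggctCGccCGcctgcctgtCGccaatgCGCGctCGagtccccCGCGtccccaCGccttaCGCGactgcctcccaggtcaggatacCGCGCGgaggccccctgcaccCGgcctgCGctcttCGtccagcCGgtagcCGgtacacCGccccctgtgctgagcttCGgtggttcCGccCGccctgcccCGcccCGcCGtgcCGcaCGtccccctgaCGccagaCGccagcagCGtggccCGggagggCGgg

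The printed runs held 28 CpGs before Hoxa5, 47 before Pou4f1, 15 before Pax2, 35 before Sox12 and 20 before Foxo1. They held 14 before Rpl22l1, 9 before Mrps30 and 33 before Psma7. The CpG content of the 5 promoters without a peak thus overlapped that of the 3 with one. The nearest peak middle lay 191950 bp from the TSSs of Hoxa5, 54572 bp from those of Pou4f1, 171140 bp from those of Pax2, 53320 bp from that of Sox12 and 68805 bp from that of Foxo1. For Rpl22l1, Mrps30 and Psma7 it lay 5, 2 and 29 bp from a TSS.

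The distance to the nearest peak split the CpG-rich promoters into separate groups with few in between. In promoters with a peak within 1 kb the median distance was 46 bp, with quartiles of 19 and 90 bp. In the 2810 promoters without one the median was 73.3 kb (95% binomial interval 69.1 to 78.4 kb), with quartiles of 30.7 and 180 kb and a range from 5.07 to 3636 kb. Of these, 464 had their nearest peak 5 to 20 kb away, 607 between 20 and 50 kb, 1100 between 50 and 200 kb, 566 between 200 and 1000 kb and 73 farther than 1000 kb. For 2057 of the 2810 promoters (73.2%) the peak nearest the TSS of the longest transcript lay within 1 kb of a TSS annotated for another gene. Over all CpG-rich promoters 91.6% had such a peak within 1 kb of any TSS, their own included. The paper places most binding sites within 1 kb of a TSS, so the 73.2% is not read as a trait of these promoters.

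**Figure D1:**
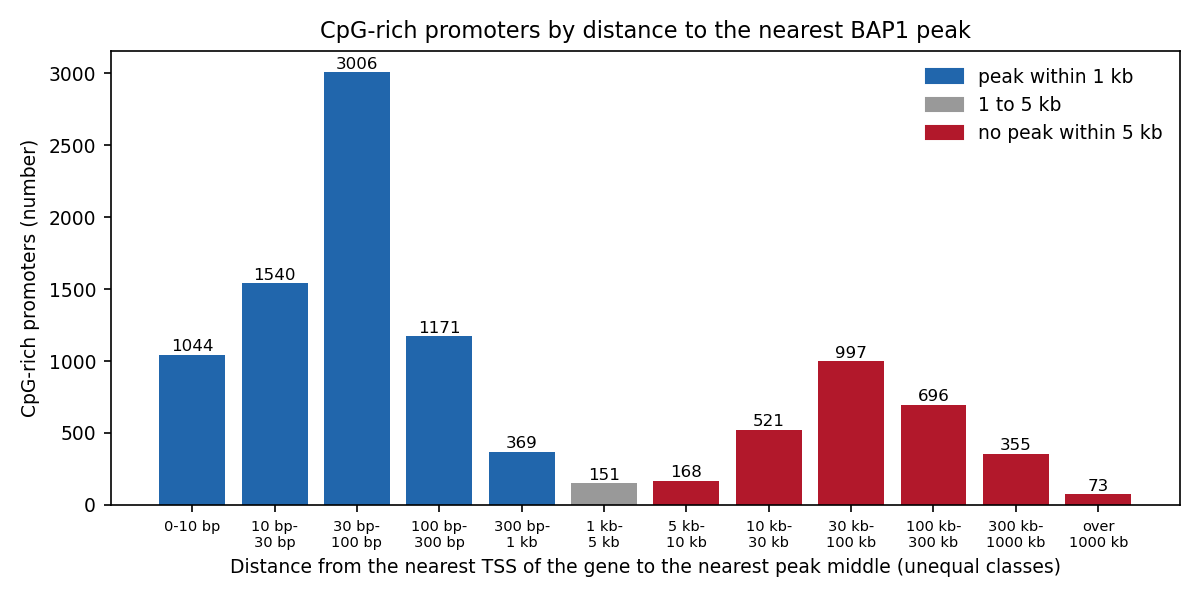
The number of CpG-rich promoters (y axis) in classes of distance from the nearest TSS of the gene to the nearest peak middle (x axis, unequal classes), in blue with a peak within 1 kb, in grey from 1 to 5 kb and in red without a peak within 5 kb. The tallest bar holds 3006 promoters at 30 to 100 bp, the lowest before the red group 151 at 1 to 5 kb, and the tallest red bar 997 at 30 to 100 kb.

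Promoters at the edges of the rule show how sharp it is. Just inside the distance of 5 kb were Fgf8, a fibroblast growth factor, with its nearest peak 5066 bp away, Aif1l at 5096 bp and Rps6ka4, a ribosomal S6 kinase, at 5111 bp. Just outside it were E330016A19Rik at 4953 bp, Rtn2 at 4909 bp and Arl6ip5 at 4901 bp. The CpG ratio of the members nearest the threshold was 0.60012 for G630090E17Rik, 0.600138 for Dgkh, a diacylglycerol kinase, and 0.600182 for Zfp354a. Etnk2 and the NMDA receptor subunit gene Grin2a also had no peak within 5 kb and fell outside with CpG ratios of 0.59987 and 0.599688.

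Among the promoters farthest from any peak, Pcdh10, a protocadherin of cell adhesion, lay 3636 kb from the nearest peak and had a CpG ratio of 0.652. Lphn3, an adhesion receptor also called latrophilin, lay 3367 kb away, the secreted guidance molecule Sema3e 2837 kb and 1700018B24Rik 2616 kb. Nova1, a neuronal splicing factor, lay 2550 kb from a peak, the presynaptic scaffold gene Pclo 2348 kb, Dsel 2322 kb and the homeobox and zinc finger gene Zfhx4 2063 kb. The predicted gene Gm9804 lay 1947 kb from a peak.

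CpG content at the TSS was bounded by the rule, since both groups had to reach a CpG ratio of 0.6 in this window. Above that bound the ratio was lower without a peak, though single promoters overlapped. The median CpG ratio was 0.756 (95% interval 0.7497 to 0.7609) without a peak and 0.7999 (0.796 to 0.804) with one, and the quartiles of 0.676 to 0.846 and 0.718 to 0.884 overlapped over most of their range. The median GC content was 63.3% without a peak and 61.0% with one, and the lowest values were 33.2 and 42.4%. The median number of CpGs in the 1 kb window was 74 against 73. The CpG-rich stretch around the TSS was a run of 200 bp windows in steps of 50 bp with a CpG ratio of at least 0.6 and at least 50% GC. Its median length was 800 bp in both groups. No such window held the TSS at 150 promoters without a peak (5.34%) and at 1.68% of those with one. Where none did, the share without a peak was 53.8% (150 of 279). It was 37.1% for stretches below 500 bp, 25.2% at 500 to 1000 bp, 27.2% at 1000 to 1500 bp, 30.2% at 1500 to 2000 bp and 37.2% (51 of 137) at 2000 bp or more.

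The share of promoters without a peak fell with the CpG ratio and levelled off. It was 38.6% (946 of 2449) at ratios of 0.6 to 0.7, 28.1% at 0.7 to 0.8, 22.6% at 0.8 to 0.9, 20.7% at 0.9 to 1.0 and 22.5% (98 of 435; 18.9 to 26.7%) at 1.0 or more. The intervals of the last 3 classes overlapped. Against GC content the share was 23.2% (342 of 1472) below 55% GC, 20.0% at 55 to 60%, 28.8% at 60 to 65%, 34.5% at 65 to 70% and 37.8% (420 of 1110) at 70% or more.

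Promoters of high CpG ratio stood in both groups. The highest CpG ratio without a peak was 1.15 at Acvr2a, an activin receptor, with its nearest peak 58.9 kb away. Pde8a, a phosphodiesterase of cyclic AMP, also had a ratio of 1.15 and a distance of 38.6 kb. Next came the vomeronasal receptor gene Vmn1r90 at 1.12, Atf7ip at 1.12, the Cdc42 effector kinase gene Cdc42bpa at 1.11 and Fign, a microtubule-severing ATPase, at 1.10. Rimklb, Dennd5b, Agbl3 and the ubiquitin ligase gene Hace1 had ratios of 1.10, 1.10, 1.09 and 1.09. Of these 10 promoters, Vmn1r90 stood apart in that only 79.0% of its 50-base words occurred once in the genome, against 100% in the other 9.

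Developmental transcription factors mostly lacked a peak. Of 184 CpG-rich promoters in 9 lists of such factors, 164 (89.1%; 83.8 to 92.9%) had no peak within 5 kb, against 27.8% of all CpG-rich promoters. The lists were chosen with earlier results of these data known. All 20 CpG-rich Hox promoters lacked a peak, as did all 4 Pax and all 9 T-box promoters. The other lists gave 70 of 79 for other homeobox factors, 12 of 13 for Sox, 22 of 28 for forkhead, 3 of 4 for Gata, 18 of 20 for tissue-restricted bHLH and 6 of 7 for Zic and Gli factors.

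The Hox genes set position along the body axis and lie in 4 clusters. The annotation gave 40 entries under 39 symbols, since Hoxa3 appeared 2 times, and none of the 40 promoters, CpG-rich or CpG-poor, had a peak within 5 kb. In the Hoxa cluster all 12 promoters were 146 to 248 kb from the nearest peak. The 9 Hoxc promoters were 118 to 214 kb from a peak and the 9 Hoxd promoters 62.8 to 105 kb. The 10 Hoxb promoters came closest, at 5.50 to 166 kb. The highest CpG ratios were 0.996 at Hoxa5, 0.953 at Hoxa13 and 0.921 at Hoxd8.

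Among the other homeobox genes, Pou4f1, a factor of sensory neurons, had a CpG ratio of 1.02 and a distance of 54.6 kb. En2, which patterns the midbrain and hindbrain, had 1.00 and 94.2 kb, and Nkx6-2 had 0.978 and 102 kb. The 4 CpG-rich Pax promoters were 171 to 346 kb from a peak, with 171 kb at the kidney and eye factor Pax2, 292 kb at Pax3 and 210 kb at Pax7, both of which act in muscle and neural crest. Sox11, a factor of immature neurons, was 1286 kb from a peak at a CpG ratio of 0.969, and Sox30 was 24.8 kb away. Of the T-box genes, Tbx3 lay 436 kb from a peak, Tbx15 99.2 kb and Tbx21, the T-bet factor of T helper cells, 35.2 kb. Gata4 of the heart lay 35.7 kb from a peak and Gata5 58.5 kb. Twist1, a bHLH factor of mesoderm, lay 528 kb away, Gli3 of the hedgehog pathway 159 kb and Zic2 56.1 kb.

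Of the 184 developmental promoters, 20 were not members, and those named here were named after their values were seen. A peak within 1 kb lay at 15, among them Dlx1, Hmx2, Otx1, Shox2 and Six5 of the homeobox genes, Foxd2, Foxj3, Foxk1, Foxm1, Foxn2 and Foxo3 of the forkhead genes, and Gata2, Tal1 and Glis2. Foxm1 is a factor of mitotic genes, and Gata2 and Tal1 act in blood stem and progenitor cells. The promoters with a peak were not sorted by the tissue in which their genes act. For Irx2, Irx5, Nkx1-1, Sox18 and Twist2 the nearest peak lay 1.89, 1.89, 4.42, 4.00 and 3.33 kb away. At the 15 with a peak within 1 kb the peak middle was 1 to 495 bp from a TSS, with a median of 74 bp. Their median CpG ratio was 0.816 (n = 15), against 0.747 in the 164 without a peak, and the interval of the former, 0.744 to 0.883, held the latter.

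**Figure D2:**
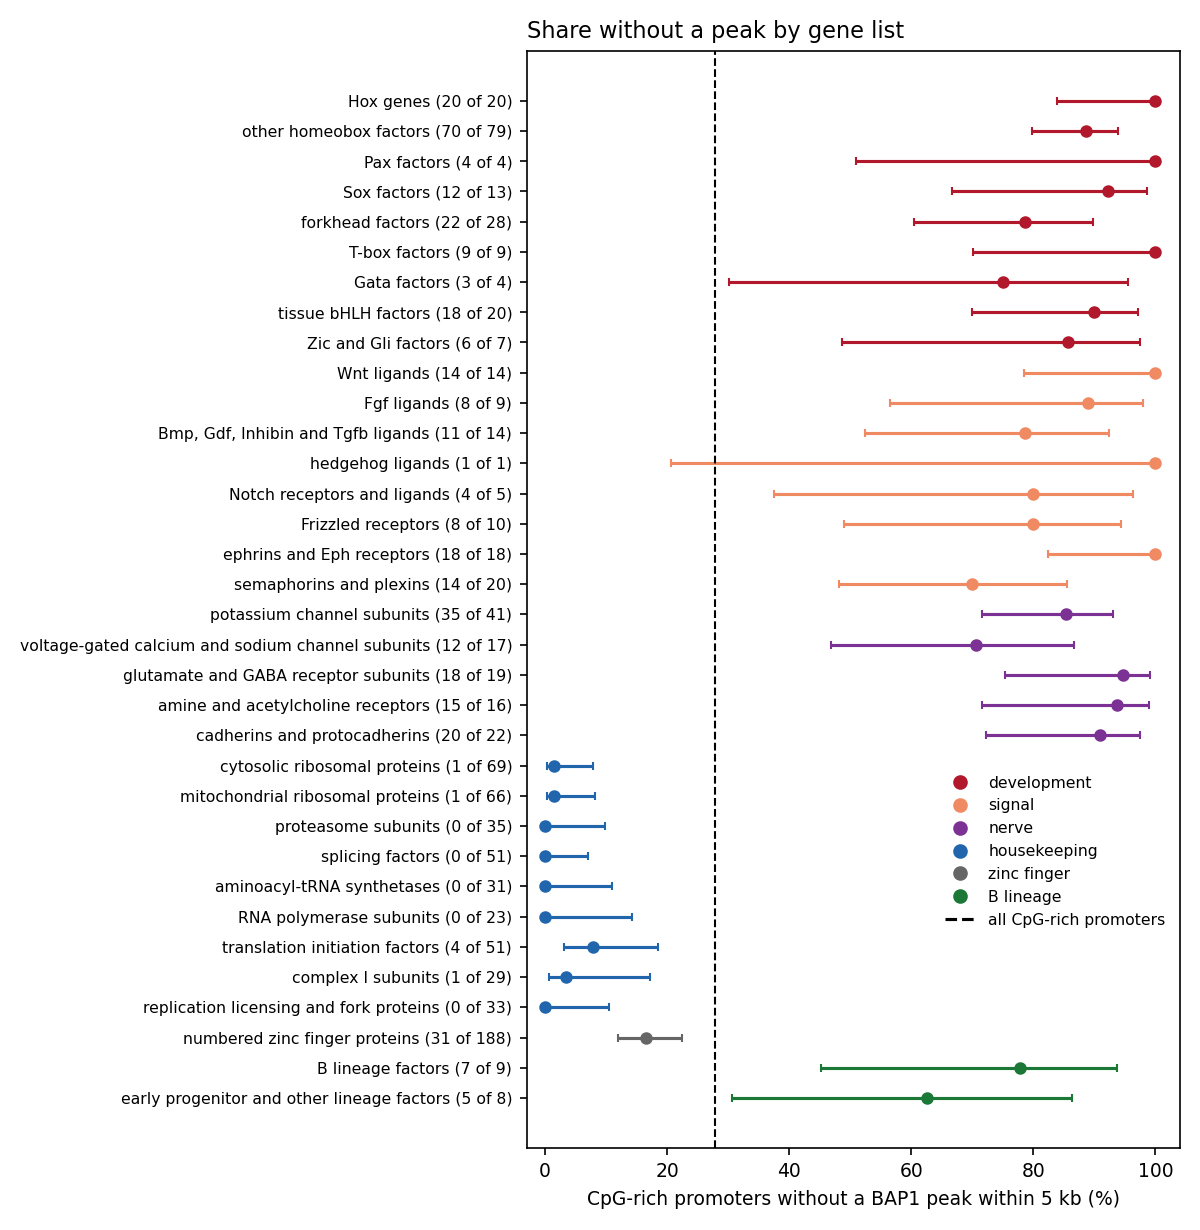
The share of CpG-rich promoters without a peak within 5 kb (x axis, %) for each of the 34 gene lists, with the number of such promoters and of all CpG-rich promoters in brackets, 95% Wilson intervals as bars and the share over all CpG-rich promoters, 27.8%, as a dashed line. The lists of developmental factors, signalling and nerve genes lie between 14 of 20, for semaphorins and plexins, and 100%, the housekeeping lists at 0 to 7.84%.

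The developmental members also shared a wide CpG-rich surrounding of the TSS. Within 5 kb on either side of the TSS, CpG-rich windows covered a median of 2875 bp (95% interval 2600 to 3200 bp) at the 164 developmental promoters without a peak. The median over all 2810 promoters was 1300 bp and that of the 7130 promoters with a peak 1200 bp. At least 3000 bp were covered at 78 of the 164 (47.6%), at 7.54% of the 2810 and at 1.84% of the 7130. The 15 developmental promoters with a peak had a median of 3050 bp (1750 to 3750 bp), which overlapped that of the 164 without one. Over all CpG-rich promoters the share without a peak was 26.1% below 1000 bp, 25.04% at 1000 to 2000 bp, 36.8% at 2000 to 3000 bp, 52.4% (133 of 254) at 3000 to 4000 bp and 68.7% (79 of 115; 59.7 to 76.5%) at 4000 bp or more.

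Beyond 500 bp from the TSS the mean CpG density was higher at developmental promoters without a peak than in either whole group, and more so downstream. In the 500 bp after the TSS the mean density was 9.33 CpGs per 100 bp without a peak, 9.07 with one and 9.28 at developmental promoters without a peak. In the 500 bp before the TSS the means were 6.16, 6.29 and 6.00. Between 1 and 1.5 kb downstream it was 2.59 ± 2.38 (SD, n = 2810) without a peak, 1.64 ± 1.63 (SD, n = 7130) with one and 5.15 ± 3.66 (SD, n = 164) at developmental promoters without a peak. Between 1.5 and 2 kb upstream the means were 1.24, 1.09 and 2.00. The SDs were wide, so single promoters of the groups overlapped.

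**Figure D3:**
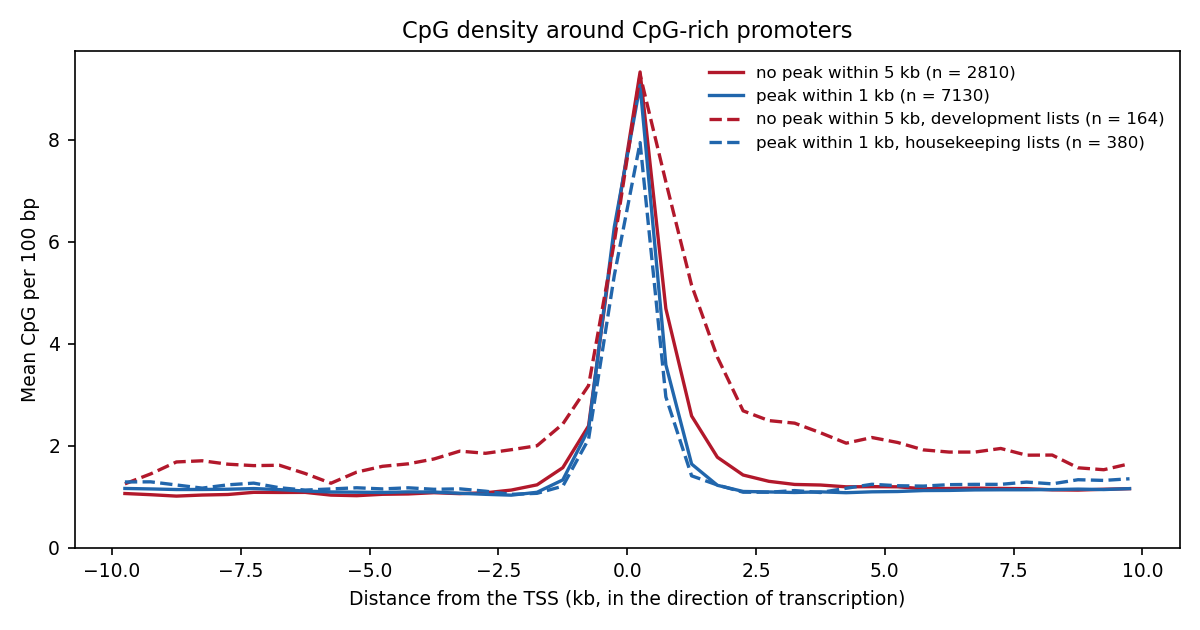
The mean number of CpGs per 100 bp (y axis) in bins of 500 bp from 10 kb upstream to 10 kb downstream of the TSS (x axis), for CpG-rich promoters without a peak within 5 kb (red) and with a peak within 1 kb (blue), with the developmental lists and the housekeeping lists dashed. All lines peak in the first bin after the TSS, at 7.95 to 9.33. Downstream of that bin the dashed red line stays highest, at 5.15 between 1 and 1.5 kb.

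Genes of cell signalling followed the developmental factors. Of 91 CpG-rich promoters in 8 lists of ligands and receptors, 78 (85.7%; 77.1 to 91.5%) had no peak within 5 kb. All 14 CpG-rich Wnt promoters lacked a peak, at distances from 11.3 to 996 kb, and Wnt5b, Wnt9a and Wnt4 had the highest CpG ratios with 0.997, 0.997 and 0.859. All 18 promoters of ephrins and Eph receptors, which guide cells by contact, lacked a peak as well, at 6.30 to 1648 kb. For Efnb2 the distance was 29.1 kb, for Efna5 619 kb and for Epha8 32.1 kb. Of the Fgf ligands 8 of 9 were without a peak, of the Bmp, Gdf, Inhibin and Tgfb ligands 11 of 14, of the Notch receptors and ligands 4 of 5 and of the Frizzled receptors 8 of 10. Bmp2 had a CpG ratio of 1.08 and lay 409 kb from a peak, and the Notch ligands Jag2, Jag1 and Dll1 lay 12.7, 194 and 19.3 kb away. Ihh was the 1 hedgehog ligand with a CpG-rich promoter and lay 123.3 kb from a peak.

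Semaphorins and plexins, ligands and receptors of axon and immune cell guidance, gave 14 of 20 without a peak (95% interval of the share 48.1 to 85.5%). The 6 with a peak, named after their values were seen, were Plxnd1, Sema4b, Sema4c, Sema4d, Sema6b and Sema6c, with peak middles 22 to 110 bp from a TSS. The other signalling promoters with a peak within 1 kb were those of Fgf2, Gdf11, Gdf9, Tgfb1, Notch2, Fzd2 and Fzd4. Tgfb1 encodes the transforming growth factor beta 1 that many blood cells make, and Notch2 a receptor of marginal zone B cells. Here too the genes were not sorted by tissue.

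Families of channels, transmitter receptors and cadherins gave 100 of 115 CpG-rich promoters without a peak (87.0%; 79.6 to 91.9%). These families are called nerve lists here, though some of their members act in other tissues. Potassium channel subunits gave 35 of 41, calcium and sodium channel subunits 12 of 17, glutamate and GABA receptor subunits 18 of 19, amine and acetylcholine receptors 15 of 16 and cadherins 20 of 22. The highest CpG ratios were 1.04 at Kcnmb4, 0.975 at Grin1, an NMDA receptor subunit, 0.951 at Cacna1i, 0.901 at Cdh4 and 0.878 at the serotonin receptor gene Htr7. Cdh2, the N-cadherin gene, lay 1887 kb from the nearest peak, Grik3 314 kb and Cacng4 194 kb. The 13 with a peak within 1 kb, named after their values were seen, included Kcna3, a potassium channel gene used by lymphocytes, 81 bp from a TSS. The others were Kcnab2, Kcnab3, Kcnk5, Kcnq5, Cacna1a, Cacnb1, Cacng2, Cacng7, Gabbr1, Chrnb1, Cdh24 and Celsr3.

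Housekeeping genes were nearly absent from the promoters without a peak. Of 388 CpG-rich promoters in 9 lists, 7 (1.80%; 0.877 to 3.68%) had no peak within 5 kb and 380 had a peak within 1 kb. In 5 lists, the proteasome subunits, splicing factors, aminoacyl-tRNA synthetases, RNA polymerase subunits and replication proteins, the count was 0 of 173, which allows a share of up to 1.73%. Rpl10l, a retrogene copy of Rpl10 used in the testis, lay 461 kb from a peak, and 94.5% of its 50-base words occurred once in the genome. Mrpl24 lay 8.62 kb away, with a CpG ratio of 0.660, and no CpG-rich window held its TSS. Ndufc2 lay 28.4 kb away. The translation initiation list gave the other 4, with Eif4enif1, which carries eIF4E into the nucleus, at 30.9 kb, Eif2c4, an Argonaute gene under its older symbol, at 23.5 kb and Eif4g3 at 15.4 kb. The fourth, added after its values were seen, was Eif5a2, a relative of Eif5a, at 24.1 kb.

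Numbered zinc finger genes, some of which repress repeats, lay between the other lists and below the background, with 31 of 188 CpG-rich promoters without a peak (16.5%; 11.9 to 22.5%). Those with the highest CpG ratio were Zfp618 at 0.970 and 290 kb from a peak, Zfp521, a factor of blood progenitors, at 0.933 and 710 kb, and Zfp385b at 0.901 and 126 kb.

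Transcription factors of the B lineage were on both sides. Of 9 with a CpG-rich promoter, 7 had no peak within 5 kb: Foxo1 at 68.8 kb, Lef1 at 18.05 kb, Bach2 at 40.3 kb, Irf8 at 5.49 kb, Ikzf1 at 109 kb, Bcl11a at 183 kb and Ikzf3 at 28.7 kb. Myb had a peak middle 66 bp from a TSS, and at Tcf3, which encodes the E2A proteins, it lay on a TSS. The remaining 8 of the list were CpG-poor at the TSS of their longest transcript. Of these Pax5, Ebf1, Irf4, Runx1, Spib and Pou2af1 had no peak within 5 kb, while Ets1 and Pou2f2 had a peak within 1 kb. The share of 77.8% rests on 9 promoters of a list chosen with earlier results known, and its interval ran from 45.3 to 93.7%. It is a description and no test against the 27.8% of all CpG-rich promoters. Irf8 and Lef1 would not be members under the alternative limit of 20 kb. In the list of progenitor and other lineage factors 5 of 8 lacked a peak, namely Cebpa, a myeloid factor, at 62.6 kb, Fli1 at 29.4 kb, Meis1 at 901 kb, and the T cell factors Tcf7 and Bcl11b at 50.3 and 176 kb. Cebpb, Gata2 and Tal1 had a peak within 1 kb and, like Fli1 and Meis1, are named after their values were seen. Foxo1, Gata2 and Tal1 stood in a developmental list as well and were counted under both.

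The listed genes were a small part of the whole. Developmental, signalling and nerve lists together held 342 of the 2810 promoters (12.2%), all 34 lists held 391, and 2419 (86.1%) were in no list. By symbol the 2810 promoters had 2800 names, since some symbols stood for more than 1 annotated gene.

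Short sequence motifs of promoter factors were searched from 250 bases before to 50 bases after the TSS, on both strands, as exact letters. The 10 motifs were those of ETS factors (CCGGAAGT), NRF1 (CGCATGCG), YY1 (AAGATGGCG), Sp and Klf factors (GGGCGG), CRE-binding factors (TGACGTCA), E-box factors (CACGTG), NFY (CCAAT), ZNF143 (ACTACAATT) and E2F (TTCCCGC), and the TATA box (TATAAA). None of them holds the letters of another on either strand. A match is only a match of letters and does not show that a factor was bound. The motifs, like the gene lists, were chosen with earlier results of these data known.

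The ETS motif was scarce in promoters without a peak. It occurred in 43 of the 2810 promoters without a peak (1.53%; 1.14 to 2.05%) and in 830 of the 7130 with one (11.6%; 10.9 to 12.4%), a difference of -10.1 percentage points (95% Newcombe interval -11.0 to -9.22). In all 21418 promoters the share was 4.88%. Of the 164 developmental promoters without a peak 0 held it, which allows a share of up to 1.83%. This limit lies above the 1.53% of the 2810, so the developmental promoters cannot be told apart from the whole. Of the 380 housekeeping promoters with a peak 66 (17.4%) held it, a group that differs in both gene class and peak status. Of the 876 CpG-rich promoters with the motif 4.91% lacked a peak, against 30.0% of those without the motif. Acvr2a, Meis1 and Eif5a2 were among the 43 exceptions.

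The ETS motif was scarcer without a peak in each of the 10 classes of promoter examined, all chosen after the data were seen. By CpG ratio, 2.33% without and 13.2% with a peak held the motif at ratios of 0.6 to 0.7, and 1.70% and 9.82% at 0.9 or more. By GC content it was 3.80% and 15.7% below 55% GC, and 1.09% and 6.18% at 65% or more. Without divergent promoters it was 1.55% and 10.8%, among genes with 1 annotated TSS 1.79% and 11.8%, and among promoters in which at least 90% of 50-base words occurred once in the genome 1.61% and 11.6%.

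The motifs of NRF1 and YY1 were likewise scarcer without a peak. The NRF1 motif occurred in 1.46% against 5.29% (difference -3.83 points, -4.49 to -3.11), and the YY1 motif in 0.641% against 4.50% (-3.86 points, -4.42 to -3.27). YY1 is a known partner of BAP1. The ZNF143 motif was rare, with 5 promoters (0.178%) against 61 (0.856%). The CRE occurred in 2.42% against 4.45% and the E2F motif in 8.68% against 10.7%. The share of all promoters was 2.26% for NRF1, 1.93% for YY1, 0.500% for ZNF143, 2.33% for the CRE and 5.87% for E2F.

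The other 4 motifs were the Sp and Klf, NFY, E-box and TATA motifs. The Sp and Klf motif was found in 71.7% of promoters without and 73.5% of those with a peak, and the interval of the difference, -3.76 to 0.145 points, held 0. Its share over all promoters was 44.9%. The NFY motif occurred in 29.7% against 39.7%, a difference of -10.0 points (-12.0 to -7.94), and in 37.4% of all promoters. It was found in 83 of the 164 developmental promoters without a peak (50.6%) and in 39.2% of the 380 housekeeping promoters with a peak. These groups differ in both gene class and peak status. The E-box was found in 9.68% against 11.6% (all promoters 7.91%). The TATA box was the 1 motif of the 10 more frequent without a peak, in 6.73% against 5.29% (1.44 points, 0.414 to 2.54; all promoters 13.4%). In the printed runs without a peak, NFY letters begin 204 bases before the TSS of Hoxa5, 203 before that of Sox12 and 162, 55 and 23 before that of Foxo1. Sp and Klf letters begin 189 and 185 bases before that of Pou4f1, and also stand before Sox12 and Foxo1. The run before Pax2 held none of the 10. Of the runs with a peak, Mrps30 and Psma7 held NFY letters and Rpl22l1 and Psma7 Sp and Klf letters.

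Counted together, 6 of the motifs (ETS, NRF1, YY1, CRE, ZNF143 and E2F) ordered the promoters by their number. Of the CpG-rich promoters with none of the 6, 32.9% (2418 of 7350) lacked a peak. With 1 of the 6 it was 15.3% (366 of 2396) and with 2 or more 7.54% (26 of 345; 5.19 to 10.8%). The 6 were chosen after the shares of single motifs were known, so this restates those shares.

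**Figure D4:**
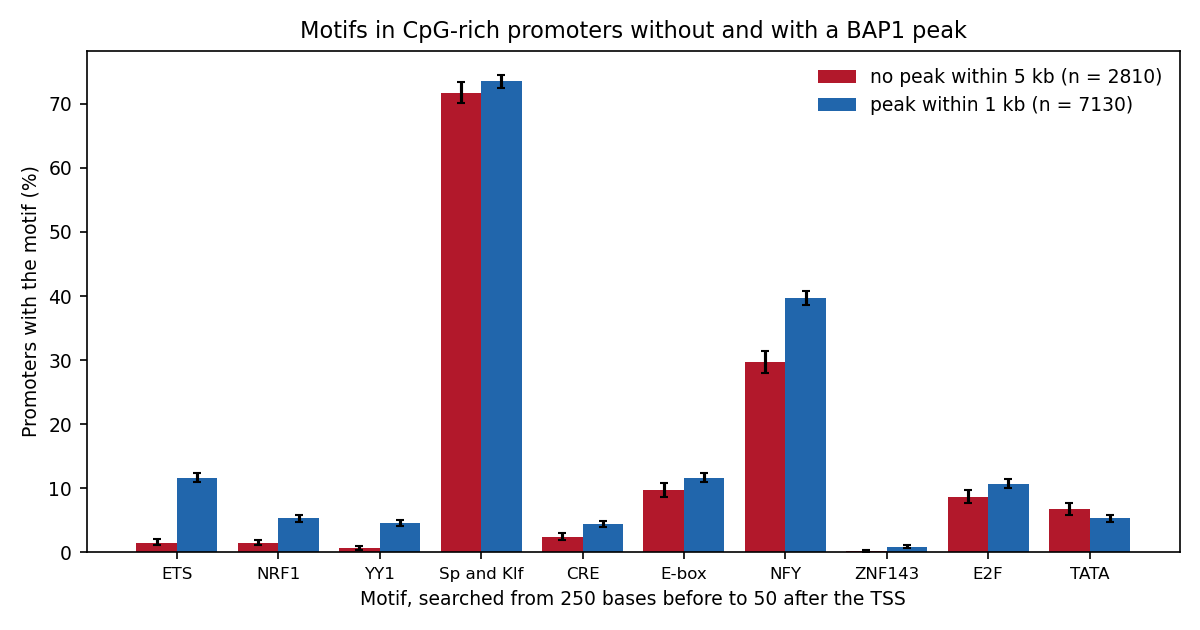
The share of promoters (y axis, %) that hold each of the 10 motifs (x axis), for CpG-rich promoters without a peak within 5 kb in red and with a peak within 1 kb in blue, with 95% Wilson intervals as bars. The ETS bars stand at 1.53 and 11.6%, while the Sp and Klf bars stand at 71.7 and 73.5%.

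Promoters without a peak belonged to longer and more isolated genes. The median gene span was 36.5 kb (33.5 to 40.3 kb) without and 22.9 kb (22.2 to 23.7 kb) with a peak, and spans over 100 kb made up 26.98% against 9.59%. The share without a peak was 18.6% at spans of 10 to 30 kb, 46.1% at 100 to 300 kb and 75.5% (219 of 290; 70.3 to 80.1%) at 300 kb or more. Below 10 kb the share was 28.3%, near the 27.8% of all CpG-rich promoters. The developmental factors without a peak had a median span of 5.22 kb. Of the 464 CpG-rich promoters of single-exon genes, 232 (50.0%) had no peak.

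The neighbourhood differed as well. No other protein-coding TSS lay within 100 kb at 26.8% of promoters without a peak and at 7.69% of those with one, a difference of 19.1 points (17.4 to 20.9). The share without a peak fell from 57.3% (754 of 1315) with no such neighbour to 38.9% with 1, 25.6% with 2 or 3, 17.7% with 4 to 7 and 14.9% with 8 or more. A TSS of another coding gene on the other strand within 1 kb upstream, a divergent pair, was found at 103 promoters without a peak (3.67%) and at 1302 with one (18.3%), a difference of -14.6 points (-15.7 to -13.4). A peak at the partner of such a pair would also lie near the promoter counted, so the pairs are not independent of the rule. The same holds for any neighbour with a TSS within 5 kb, so the neighbour classes are not wholly independent of the rule either.

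Genes with more annotated TSSs had more places at which a peak could count, and the share without a peak was 34.1% with 1 TSS and 18.2% with 8 or more. Among genes with 1 annotated TSS only the outer classes were counted, and whether TSS number accounts for the contrasts was not tested. There the share was 60.5% (245 of 405) with no coding neighbour within 100 kb and 20.5% (108 of 526) with 8 or more, and 38.8% (477 of 1230) at spans below 10 kb and 87.2% (41 of 47) at 300 kb or more.

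**Figure D5:**
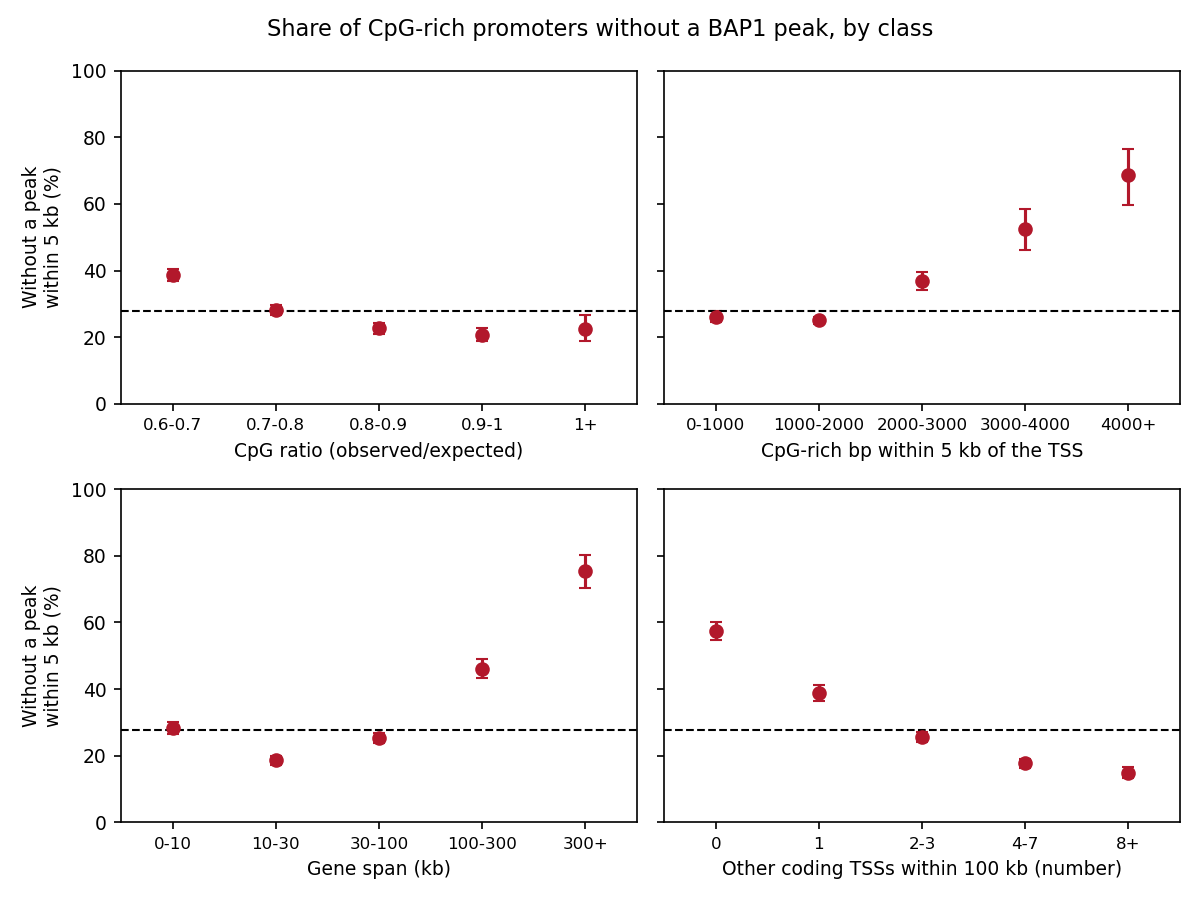
The share of CpG-rich promoters without a peak within 5 kb (y axis, %) by class of CpG ratio, CpG-rich base pairs within 5 kb of the TSS, gene span and number of other coding TSSs within 100 kb (x axes), with 95% Wilson intervals and the share over all CpG-rich promoters, 27.8%, as a dashed line. The share reaches 75.5% at spans of 300 kb or more and falls from 57.3 to 14.9% with the number of neighbours.

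Some promoters without a peak lay side by side. Along the chromosomes, 1676 of the 2810 (59.6%) stood next to another such promoter, with no CpG-rich promoter that had a peak within 5 kb between them, and 1134 stood alone. With 27.8% of CpG-rich promoters lacking a peak, such neighbours also arise without any clustering, and whether 59.6% exceeds that was not tested. There were 1758 runs in all, 43 of them with at least 5 promoters, which held 260. The run over the Hoxa cluster on chromosome 6 had 9 promoters over 155 kb, among them Hoxa4, Hoxa5, Hoxa11, Hoxa13, Evx1 and 5730596B20Rik, all at least 146 kb from a peak. A run of 7 on chromosome 2 went from Evx2 to Hoxd1. A run of 8 on chromosome 5 spread over 10942 kb and held Sema3e, Pclo, the calcium channel gene Cacna2d1, Sema3c, Gnai1 and Magi2.

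The 3 longest runs were of another kind. They held 15 promoters on chromosome 14, 14 on chromosome 9 and 10 on chromosome 12, of which 14, 12 and 7 had names of predicted genes such as Gm3020, Gm10722 and Gm4983. The median share of 50-base words of the promoter that occurred once in mm9 was 0% in the first of these runs, 16.1% in the second and 49.2% in the third, against 100% at all promoters of the Hoxa and chromosome 5 runs. A read of 50 bases within a repeated word has no unique place of its own, so the absence of a peak says less at the promoters of low uniqueness in these runs. The highest share of unique words was 62.9% in the first run, 97.4% in the second and 97.2% in the third.

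Repeated sequence touched a small part of the whole. Under 90% of the 50-base words were unique at 133 of the 2810 promoters without a peak (4.73%) and at 262 of the 7130 with one (3.67%), a difference of 1.06 points (0.198 to 2.00). Of the 133, 70 had names of predicted genes. No developmental promoter without a peak was among them, the lowest having 90.9%. On the promoters with at least 90% unique words the share without a peak was 27.6%, against 27.8% of all.

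Every chromosome held promoters without a peak. The share ran from 20.8% (99 of 475) on chromosome 17 to 34.6% (148 of 428; 30.2 to 39.2%) on chromosome 12. The intervals at both ends of this order did not overlap, while those of all neighbours in it did. Chromosomes 9, 12 and 14 held the 3 longest runs with their promoters of low uniqueness, which were not set apart here.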

How the data were processed

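Chromatin immunoprecipitation with sequencing (ChIP-Seq) of BAP1 was analysed in Ba/F3 cells. Paired reads of 50 bp were aligned by the authors to mm9 using Bowtie 1.0.0, and binding sites came from MACS 1.4.2 with input DNA as the control, per the labels and the study's methods. The deposited list gives the start and end of 13164 peaks, with no score. How both samples were combined and the threshold used are not given in the sources used here, and a stricter threshold would leave more promoters without a peak. The sequencing depth is unknown.

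GENCODE M1 and the NCBIM37 genome, which is mm9, were used. Each protein-coding gene of chromosomes 1 to 19 was given the TSS of its transcript with the longest genomic span. A peak was placed by its middle, 100 bp after its start, and its distance was taken to the nearest of all annotated TSSs of the gene. Spans, motifs, neighbours and words of 50 bases were counted on the genome and annotation. Promoter names come from the annotation, and symbols were matched to 34 lists by pattern.

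The members, lists and motifs were chosen with earlier results of these data known. Named genes were, by rule, the 3 members with the highest CpG ratio of each list (all of them in lists with fewer), the 10 with the highest CpG ratio and the 10 farthest from a peak, the 3 promoters on either side of each threshold, the genes of the 5 longest runs and every B lineage factor. A few genes that this rule names are not reported here. Sequences were to run to 50 bases past the TSS and are shown up to it. Shares have 95% Wilson intervals, differences Newcombe intervals and medians binomial intervals, and no significance test was made. Where a count was 0, 3 counts gave the limit. The functions were tested on simulated data. Alternatives were other distances, CpG thresholds, windows and TSSs, merged promoters and unique promoters. The distance from 1 TSS alone and the motif classes were added after seeing the data. So were the classes of stretch length, span, neighbours and TSS number, and the CpG-rich bp within 5 kb. The share of masked repeats was not run, since the genome used marks none. Python 3.11.15 with numpy 2.4.6, pandas 2.3.3, scipy 1.17.1, numba 0.67.0 and matplotlib 3.10.9 was used.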

Additional observations from a re-analysis of the deposited data

How the results depend on the processing

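Each of 9 results was recomputed under 10 other settings, and 68 of the 90 values stayed within 1.5 times the count or within the interval of the value reported. With a CpG ratio of at least 0.75, 1456 promoters had no peak, 23.5% of the CpG-rich ones, with a median CpG ratio of 0.842, a median stretch of 1000 bp and a median distance of 78.9 kb, 83.7% of developmental promoters lacked a peak, and 1.10% of those without a peak held the ETS motif. With a ratio of at least 0.5 the share was 31.5%, the median ratio 0.703 and the stretch 700 bp. With the ratio taken over 1 kb on either side the share was 26.7%, the median ratio 0.709, the stretch 950 bp, the distance 82.5 kb and the ETS share 1.06%. With no peak required only beyond 2 kb the share was 28.9%. With 20 kb it was 23.2%, the median distance 95.02 kb and the developmental share 82.1%. With 1 promoter for TSSs closer than 1 kb to each other the share was 29.8% and that of divergent pairs 2.10%, which this setting lowers by construction. With the distance taken from 1 TSS for each gene alone, added after seeing the data, the median distance was 82.8 kb. The other settings change by construction which promoters are counted, and further causes were not tested.

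No paired analysis was possible because the peak list pools both samples and gives no value per sample. No replicate was left out, since the list cannot be split by sample. A stricter peak threshold was not run, as the list has no score. Absence of a peak is absence from this list: weaker binding, or binding in 1 of both samples, cannot be told apart from none in it. Depth and expression were unknown here, so whether the genes without a peak were silent in Ba/F3 cells was not tested.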

Other observations

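The gene lists also held promoters that were CpG-poor at the TSS used here, and these were set against the CpG-poor background, of which 13.2% had a peak within 1 kb and 82.3% none within 5 kb. Of 48 CpG-poor housekeeping promoters 36 had a peak within 1 kb and 9 (18.8%) none within 5 kb. These were 9 of 9 for the mitochondrial ribosomal proteins, 6 of 6 for the aminoacyl-tRNA synthetases, 6 of 6 for the replication proteins and 3 of 3 for the RNA polymerase subunits with a peak within 1 kb, against 5 of 8 for the cytosolic ribosomal proteins, 5 of 6 for complex I, 1 of 4 for the translation initiation factors, 1 of 5 for the proteasome subunits and 0 of 1 for the splicing factors. Of 89 CpG-poor developmental promoters 5 (5.62%) had a peak within 1 kb and 80 (89.9%) none within 5 kb, and of 168 CpG-poor nerve promoters 4 (2.38%) had one. Of the 5 developmental promoters 4 were those of forkhead genes. For a gene with several TSSs the peak can lie at a TSS other than the one at which CpG content was measured.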
